A study of Mus musculus with 12 samples.

Results

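Cxcl13, Lta, Ltbr, Tnfsf11 and Ccl19 are genes of the signalling that builds and maintains lymphoid organs. They were taken by name, with earlier results of these data known, and all 5 were found among the 561 genes of the deposited table. In the spleen Lta, a lymphotoxin gene, fell with ampicillin, and in the mesenteric lymph nodes Cxcl13, a chemokine gene of B cell follicles, rose. In the main test neither change was called in the other tissue, and the other 3 genes were not called for ampicillin in either. The difference between the effects in nodes and spleen was not called for Lta or Cxcl13 (adjusted p = 0.435 and 0.309, edgeR). Averaged over both tissues both were called, Lta lower and Cxcl13 higher (adjusted p = 0.00653 and 0.00828, edgeR). Tnfsf11, Cxcl13 and Ccl19 differed between the tissues with and without ampicillin.

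Lymphotoxin alpha, the product of Lta, forms with lymphotoxin beta a membrane-bound ligand on lymphocytes and lymphoid tissue inducer cells. This ligand acts on the lymphotoxin beta receptor, the product of Ltbr, which stromal and myeloid cells carry. The receptor signals through the noncanonical NF-kB pathway, and in stromal cells this raises the chemokines CXCL13, which draws B cells into follicles, and CCL19, which draws T cells and dendritic cells into the T cell zone. RANKL, the product of Tnfsf11, is a related ligand that is needed for lymph nodes to form in the mouse embryo.

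The study compared spleen and mesenteric lymph nodes, which drain the gut, of mice given the antibiotic ampicillin with those of untreated controls. All mice, controls included, were C57BL6 mice with hemophilia A from a knockout of exon 16, so that clotting factor VIII is missing in every group. Ampicillin was given by gavage at 3 weeks of age, tissues were taken at 6 weeks, and the dose is not given in the sources used here. The 4 groups held 3 samples each, and the labels number 12 different mice. No group received gavage without ampicillin, so gavage and ampicillin cannot be told apart. RNA was measured on the NanoString Mouse Immunology panel, which counts barcoded probes hybridized to RNA without amplification.

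Samples held 396950 to 738489 counts. Levels are given as scaled counts, for which each sample was brought to a common geometric mean of 14 housekeeping genes. Each probe hybridizes with its own efficiency, so levels are compared between samples and not between genes. Cd163, a gene of splenic red pulp macrophages, followed the tissue labels, but it was chosen after its values were seen. It stood at 325 to 370.0 scaled counts in control spleens and at 13.5 to 17.6 in control nodes. After ampicillin it stood at 256 to 315 in spleens and at 12.2 to 23.4 in nodes. Ampicillin spleens 2 and 3 stood apart from all other samples. The sum of 4 erythroid precursor markers was 7491 and 5671 scaled counts in them, against 810 in ampicillin spleen 1 and 746 to 1568 in control spleens. Counts of samples in a group differed by more than counting noise, with a chi-square per degree of freedom of 9.87 to 55.8 between ampicillin spleens and of 4 to 13.6 in the other groups. In whole tissue, fewer cells of a type and less RNA per cell cannot be told apart.

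**Figure D1:**
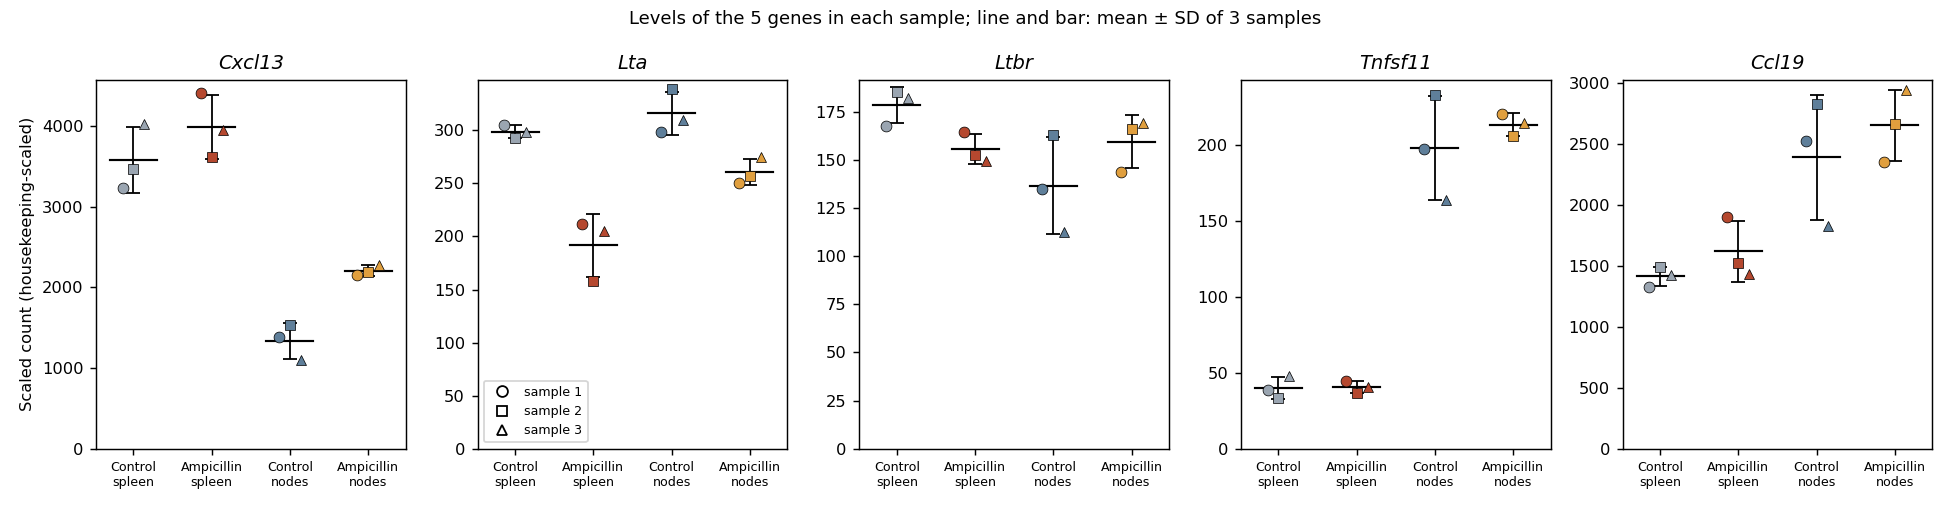
Scaled counts (vertical axes, each from 0) of the 5 genes in the 12 samples, by group on the horizontal axes; marker shape gives the sample number, lines the mean and bars the SD of 3 samples. Lta lies lower in all 3 ampicillin spleens than in any control spleen, Cxcl13 lies higher in all 3 ampicillin nodes than in any control node, and Tnfsf11 is low in all spleens.

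Lta was the member that fell in the spleen. Control spleens 1, 2 and 3 held 305, 293 and 298 scaled counts, and ampicillin spleens 1, 2 and 3 held 211, 158 and 205. All treated spleens lay below all controls, the controls lay within a narrow range, and ampicillin spleen 2 was the lowest. The mean fell from 299 ± 6.34 to 191 ± 29.2 (SD, n = 3), a log2 change of -0.63 ± 0.11 (SE; 95% interval -0.88 to -0.39; adjusted p = 0.0135, edgeR). In this comparison 16.9% of the 445 tested genes were called at an adjusted p under 0.05, 14.6% lower and 2.25% higher, so 1 called member of 5 is close to the background. Lta and Ltbr did not overlap between the groups, against 34.6% of tested genes. The median change of all tested genes was -0.17. With TMM scaling, which brings that median to 0.0006, Lta stood at -0.46 (adjusted p = 0.0312), and 22 genes were called, 11 lower and 11 higher, in place of 65 lower and 10 higher.

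Ampicillin spleen 1, whose erythroid sum lay in the control range, had the highest Lta level of the treated spleens and still lay below every control. Without ampicillin spleens 2 and 3 together, the log2 change of Lta was -0.50. That fit keeps ampicillin spleen 1 as the only treated spleen, so it cannot show whether the call depends on the other treated spleens. The call ended without control spleen 1 (log2 change -0.62, adjusted p = 0.0712) and in a fit of the 6 spleens alone (-0.64, adjusted p = 0.0941). Marker genes of lymphocytes, cells that make lymphotoxin, were also lower after ampicillin. The sum of 11 T cell markers was 8577 to 9523 scaled counts in control spleens and 8170, 5912 and 5386 in ampicillin spleens 1, 2 and 3. That of 7 B cell markers was 26282 to 27666 in controls and 20759 to 24400 after ampicillin, with no overlap. Ampicillin spleen 2 had the lowest Lta level and B cell sum, and ampicillin spleen 3 the lowest T cell sum. Of the 11 T cell markers 7 were called lower, and of the 7 B cell markers 3, with none higher. Of all tested genes 14.6% were called lower, and the marker lists were chosen with earlier results of these data known. The part of these markers in the change of Lta was not tested.

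In the lymph nodes Lta was not called. It stood at 299, 339 and 310.1 scaled counts in control nodes 1, 2 and 3, and at 251, 257 and 274 in ampicillin nodes. The groups did not overlap. In nodes this held for 2 of the 5 members, Lta and Cxcl13, and for 31% of tested genes. The log2 change was -0.28 ± 0.11 (SE; 95% interval -0.52 to -0.03; adjusted p = 0.189, edgeR). The difference between the effects in nodes and spleen was 0.36 (95% interval 0.01 to 0.71) and was not called (adjusted p = 0.435). Averaged over both tissues, Lta fell by 0.46 on the log2 scale (adjusted p = 0.00653, edgeR), and it was called in all 12 fits that left out 1 sample. In that average 22.9% of tested genes were called, 20% lower and 2.92% higher. With TMM scaling that split became 44 genes lower and 53 higher, in place of 89 and 13, and Lta stood at -0.34 (adjusted p = 0.00931).

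Without ampicillin Lta did not separate the tissues: nodes against spleen gave a log2 change of 0.08 (95% interval -0.16 to 0.32; adjusted p = 0.561). After ampicillin it was higher in nodes by 0.44 (adjusted p = 0.00463). Without ampicillin spleens 2 and 3 together, which leaves ampicillin spleen 1 alone in its group, the difference was 0.30. The order of group means was control nodes (316), control spleen (299), ampicillin nodes (261) and ampicillin spleen (191). The first neighbours in that order overlapped.

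The partners of Lta among the ligands were measured too. Ltb, which joins Lta in the membrane-bound ligand, held 4433, 4200 and 4770 scaled counts in controls 1, 2 and 3 and 4440, 3640 and 3098 in ampicillin spleens. The groups overlapped, because ampicillin spleen 1 lay within the control range, and the log2 change of -0.26 ± 0.11 (SE) was not called (adjusted p = 0.118, edgeR). Tnf, the founding cytokine of the family, fell by 0.67 (adjusted p = 0.046), from 112 ± 19.2 to 70.1 ± 16.3 scaled counts (SD, n = 3). Tnfsf14, the gene of the LIGHT ligand, which also binds the lymphotoxin beta receptor, fell by 0.56 (adjusted p = 0.0466), from 111 ± 8.19 to 75.1 ± 13.1.

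Of the 5 listed ligands, Lta, Ltb, Tnf, Tnfsf11 and Tnfsf14, 3 were thus called lower in spleen and 0 higher. Their median was -0.56 against -0.17 for all tested genes, of which 14.6% were called lower. The list was chosen with earlier results of these data known, so the gap to these background values is not independent support. The T and B cell marker sums given above were lower after ampicillin too, and their part in the changes of this list was not tested. With TMM scaling 1 was called, Lta, while Tnf and Tnfsf14 stood at -0.49 and -0.39 (adjusted p = 0.171 and 0.152). Leaving out ampicillin spleens 1, 2 and 3 in turn gave counts of 3, 1 and 2. The 3 without ampicillin spleen 1 were not the same genes, as Tnf was then not called (-0.55, adjusted p = 0.0768, edgeR). Leaving out control spleens in turn gave 0, 1 and 1, ampicillin nodes 2, 1 and 2, and control nodes 2, 1 and 1. In the nodes none of the 5 was called, at a median of 0.03.

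Tnfsf11 showed the widest gap between the tissues among the 5 genes. It stood at 39.0, 33.6 and 47.7 scaled counts in control spleens, and at 197, 233 and 164 in control nodes. Every node lay above every spleen. The nodes were 4.92-fold higher (95% interval 3.84 to 6.32; adjusted p = 1.07e-07, edgeR), a log2 change of 2.30 ± 0.17 (SE). In that comparison 64% of tested genes were called, 29.7% higher and 34.4% lower, and 4 of the 5 members were called, 2 each way. After ampicillin the nodes, at 221, 206 and 215, were 5.20-fold higher than the spleens, at 44.5, 36.9 and 40.7 (adjusted p = 8.67e-08).

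Ampicillin gave no called change of Tnfsf11. The log2 change was 0.03 in spleen (95% interval -0.36 to 0.43) and 0.11 in nodes (95% interval -0.21 to 0.43). With 29 to 52 deposited counts in each spleen, counting noise and probe background weigh most on this gene. No background was subtracted, and after subtraction of 20 counts the tissue gap in control mice was 3.19 on the log2 scale. Tnfrsf11a, the gene of its receptor RANK, ranged over group means of 51.1 to 66.4 scaled counts and was not called for ampicillin in either tissue or between tissues.

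Ltbr, the receptor gene, was not called for ampicillin. Control spleens 1, 2 and 3 held 168, 185 and 182 scaled counts and treated ones 164, 153 and 149. These groups did not overlap. The log2 change of -0.20 ± 0.14 (SE; 95% interval -0.49 to 0.10) was not called (adjusted p = 0.317, edgeR), and it was 0.0042 with samples scaled to the median of tested genes. In nodes the values were 135, 163 and 113 in controls and 144, 166 and 169 after ampicillin, and the groups overlapped. The log2 change there was 0.23 (95% interval -0.07 to 0.53; adjusted p = 0.362).

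In control mice Ltbr was lower in nodes than in spleen, with a log2 change of -0.39 ± 0.14 (SE; adjusted p = 0.0225, edgeR). The call ended without control spleen 2 or 3 or control node 1 or 3, with changes of -0.36, -0.38, -0.38 and -0.26 (adjusted p = 0.0685, 0.0571, 0.0597 and 0.113). It also ended with scaling to the total count (-0.26, adjusted p = 0.0736). After ampicillin the tissues differed by 0.04 (95% interval -0.26 to 0.34). In the order of group means, control spleen (178), ampicillin nodes (160), ampicillin spleen (156) and control nodes (137), each neighbouring pair overlapped. Of the 4 ligand receptors of the list that were measured, Ltbr, Tnfrsf11a, Tnfrsf14 and Tnfrsf1b, none was called for ampicillin in either tissue. Tnfrsf14, the gene of HVEM, a receptor of LIGHT, held 507, 1202 and 1142 scaled counts in treated spleens 1, 2 and 3, so its high values lay in the spleens with high erythroid markers. In nodes Tnfrsf14 held 753, 707 and 691 in controls and 480, 553 and 498 after ampicillin, with no overlap, and the log2 change of -0.49 ± 0.24 (SE) was not called (adjusted p = 0.264). Tnfrsf1a was not analysed here.

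**Figure D2:**
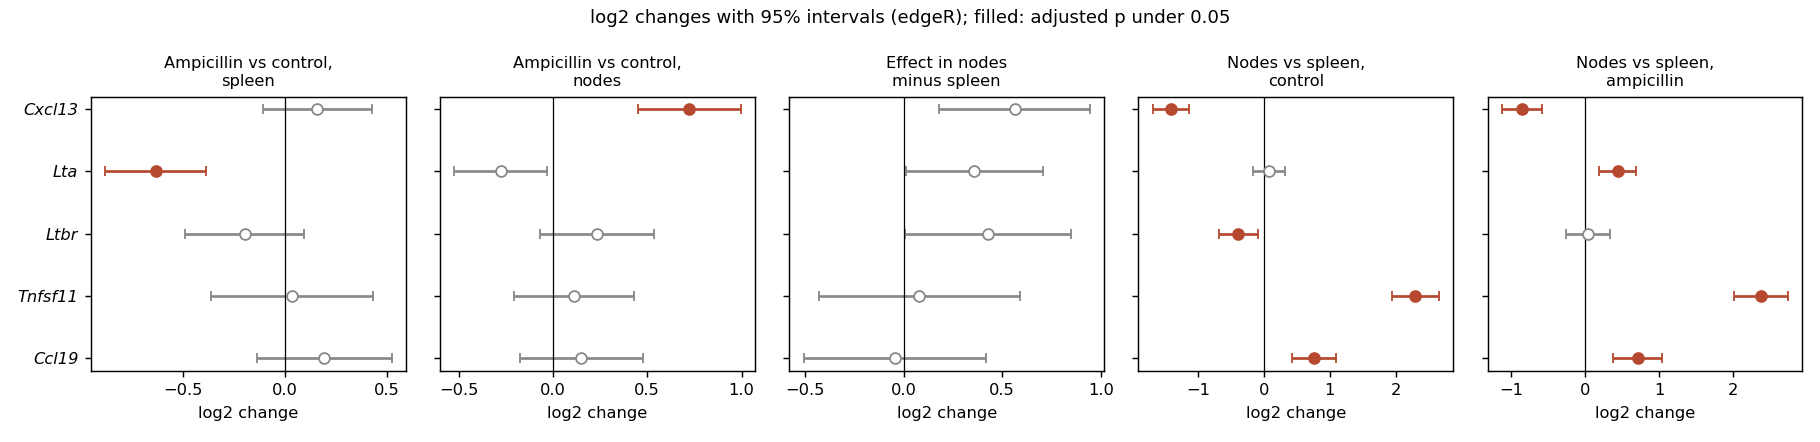
Log2 changes (horizontal axes) of the 5 genes with 95% intervals in 5 comparisons, from edgeR; filled points have an adjusted p under 0.05. Lta in spleen and Cxcl13 in nodes are the filled points for ampicillin, no point is filled for the difference of the effects, and Tnfsf11 lies farthest from 0 between the tissues, at 2.30 and 2.38.

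Between the receptor and the chemokines lies the noncanonical NF-kB pathway. None of its 5 measured genes was called for ampicillin in spleen or nodes. Relb and Nfkb2, the genes of the subunits that this pathway activates, stood at -0.13 and -0.05 (log2 change) in spleen and at -0.07 and -0.01 in nodes. Chuk, which encodes the IKK alpha kinase, stood at -0.41 ± 0.10 (SE) in nodes (adjusted p = 0.0942), and averaged over both tissues it fell by 0.27 (adjusted p = 0.0142). Traf2 and Traf3, genes of adaptors that restrain the pathway, stood between -0.12 and 0.04 in both tissues. Between the tissues of control mice Relb was called, higher in nodes by 0.59 (adjusted p = 0.000416).

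Cxcl13 was the member that rose in the nodes. It stood at 1389, 1536 and 1094 scaled counts in control nodes 1, 2 and 3, and at 2149, 2193 and 2282 in ampicillin nodes. All treated nodes lay above all controls, and the treated samples lay closer together than the controls. The mean rose from 1340 ± 225 to 2208 ± 67.7 (SD, n = 3), which is 1.65-fold (95% interval 1.37 to 1.99; adjusted p = 0.0152, edgeR). In this comparison 0.449% of tested genes, 2 of 445, were called, and Cxcl13 was the only one higher. With TMM scaling its log2 change moved from 0.72 to 0.78 (adjusted p = 0.00792), and then 32 genes were called, 18 of them higher.

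The call of Cxcl13 rested on most of the node samples. It ended without ampicillin node 1 or 2 and without control node 1 or 3, with log2 changes of 0.74, 0.73, 0.75 and 0.59 (adjusted p = 0.0578, 0.0748, 0.0675 and 0.0646). Control node 3, the lowest control, moved the value most. The plot of all settings shows that its values ran from 0.59 to 0.83.

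In the spleen Cxcl13 was not called with ampicillin in the main test, though DESeq2 with its own size factors called it higher. It stood at 3229, 3467 and 4025 scaled counts in controls and at 4408, 3618 and 3948 in treated spleens, and the groups overlapped. The log2 change was 0.16 ± 0.12 (SE; 95% interval -0.11 to 0.43; adjusted p = 0.388). The effect in nodes minus that in spleen was 0.56 (95% interval 0.18 to 0.94), which did not pass over all genes (adjusted p = 0.309, edgeR). In this test 0% of tested genes, and 0 of the 5 members, were called, with 49 genes at an unadjusted p under 0.05, and DESeq2 called 0 as well. Without ampicillin spleen 1 this difference was 0.64 and was called (adjusted p = 0.0274). Averaged over both tissues, Cxcl13 rose by 0.44 (log2; adjusted p = 0.00828), and it was called in all 12 fits that left out 1 sample.

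Between the tissues Cxcl13 ran opposite to Tnfsf11 and Ccl19. In control mice it was 2.67-fold lower in nodes than in spleen (log2 change -1.42 ± 0.13, SE; adjusted p = 8.12e-07, edgeR). After ampicillin it was 1.81-fold lower (-0.85 ± 0.13; adjusted p = 6.16e-05). In this second comparison 63.1% of tested genes were called, and so were 4 of the 5 members, 3 higher and 1 lower, against 33.5% higher and 29.7% lower of all genes. The group means ran from ampicillin spleen (3991) over control spleen (3574) and ampicillin nodes (2208) to control nodes (1340), and the 2 spleen groups overlapped.

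**Figure D3:**
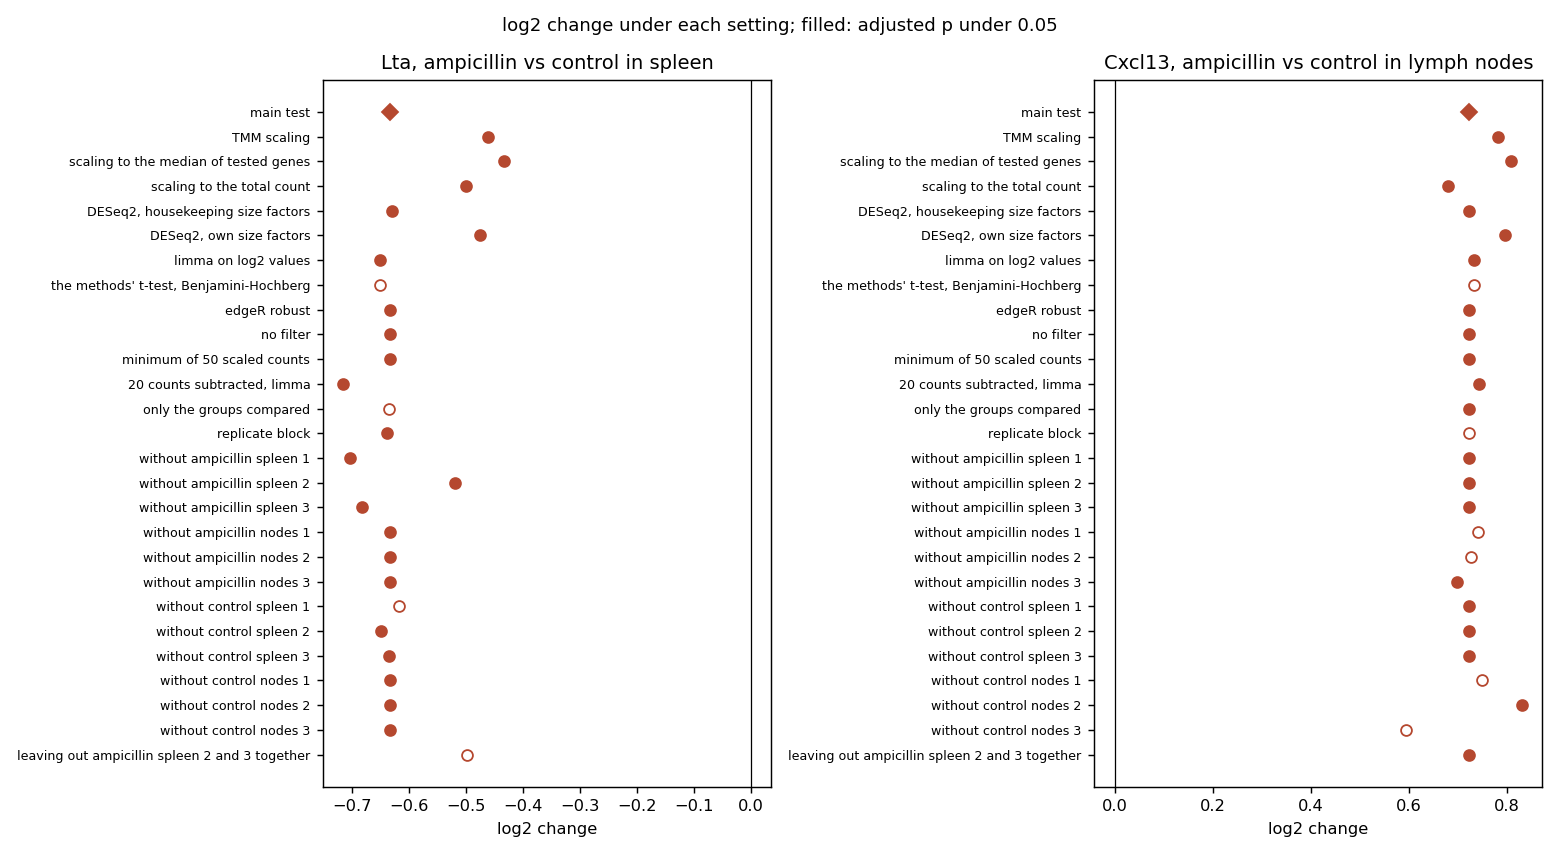
Log2 change (horizontal axes) of Lta in spleen and of Cxcl13 in lymph nodes, ampicillin against control, under the main test (diamond) and each other setting (circles); filled marks have an adjusted p under 0.05. Lta stays between -0.72 and -0.43 and Cxcl13 between 0.59 and 0.83, and open marks lie among fits that leave out samples, change the groups in the fit, use the block or use the methods' t-test.

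Ccl19 gave no called ampicillin change in the main test, though DESeq2 with its own size factors called it higher in spleen. Control spleens held 1330.4, 1488 and 1427 scaled counts and treated ones 1905, 1521 and 1432, a log2 change of 0.20 (95% interval -0.13 to 0.52; adjusted p = 0.39). In nodes it stood at 2527, 2826 and 1826 in controls and at 2355, 2662 and 2943 after ampicillin, a change of 0.15 (95% interval -0.18 to 0.48; adjusted p = 0.607). The groups overlapped in both tissues. Averaged over both tissues the change of 0.17 was not called (adjusted p = 0.265), but with TMM scaling it was 0.29 and called higher (adjusted p = 0.0394), in a comparison whose median over all genes moved from -0.10 to 0.01. Ccl19 was higher in nodes than in spleen, 1.69-fold in control mice (adjusted p = 0.000723) and 1.64-fold after ampicillin (adjusted p = 0.00105). The last difference was 0.48 (log2 change) without ampicillin spleens 2 and 3 together, which leaves ampicillin spleen 1 alone in its group.

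The promoters of the chemokine genes are shown because Cxcl13 carries the ampicillin finding in nodes and both genes are known targets of the lymphotoxin beta receptor. Below are the 250 bases before each transcription start from RefSeq (GRCm38.p6), 5′ to 3′ on the gene's strand, with matches to GGGANNTTT in capitals. Cxcl13 lies on the plus strand at chr5:95956689-95956938 and Ccl19 on the minus strand at chr4:42756366-42756615.
Cxcl13: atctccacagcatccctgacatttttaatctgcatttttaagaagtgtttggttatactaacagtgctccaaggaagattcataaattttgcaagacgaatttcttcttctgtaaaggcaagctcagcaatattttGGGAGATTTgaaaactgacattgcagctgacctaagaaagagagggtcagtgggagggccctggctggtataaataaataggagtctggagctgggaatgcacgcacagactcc
Ccl19: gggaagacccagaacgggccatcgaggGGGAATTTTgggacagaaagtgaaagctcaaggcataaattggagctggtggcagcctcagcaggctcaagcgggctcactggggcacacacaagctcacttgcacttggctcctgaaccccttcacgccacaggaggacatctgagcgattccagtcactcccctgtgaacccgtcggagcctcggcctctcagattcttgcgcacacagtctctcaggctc
The motif was chosen after these promoters had been read, as a form that the known noncanonical NF-kB site of the mouse Cxcl13 promoter fits. Searched on both strands, it occurs once in each, starting 114 bases before the start in Cxcl13 and 223 before it in Ccl19, and 4.13% of all 32851 windows of that length hold it. The windows of Lta, Ltbr and Tnfsf11 hold no match. The looser motif GGGNNNNNC occurs in 82.8% of all windows and in those of all 5 genes. A match describes letters and not binding, which was not measured here.

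The receptors of these chemokines were measured as well. Cxcr5, the receptor of CXCL13 on B cells and follicular helper T cells, was lower in control nodes than in control spleens (log2 change -0.96 ± 0.10, SE; adjusted p = 3.13e-06), as Cxcl13 was. Ccr7, the receptor of CCL19 on T cells and mature dendritic cells, was higher in nodes (1.17 ± 0.13; adjusted p = 3.88e-06), as Ccl19 was. In that comparison 34.4% of tested genes were called lower and 29.7% higher. All 7 B cell markers were lower in nodes, at a median log2 change of -0.77, and all 11 T cell markers were higher, at a median of 1.15. The part of these markers in the tissue differences of Cxcr5 and Ccr7 was not tested. Neither receptor was called for ampicillin. In nodes, where Cxcl13 rose, Cxcr5 stood at 0.15 ± 0.10 (adjusted p = 0.448), with 457 to 485 scaled counts in controls and 472 to 563 after ampicillin. In the same nodes Ccr7 stood at -0.15 ± 0.12 (adjusted p = 0.504).

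Cxcl12, a further stromal chemokine, is the gene most like Cxcl13 in level over the 12 samples (Pearson r = 0.96). Itgb1 and Cxcr2 came close behind (0.95 and 0.949). These levels include the gap between spleen and nodes. With the mean of each tissue subtracted, Cxcl12 was not among the 3 genes most like Cxcl13. In nodes Cxcl12 stood at 3720, 5148 and 3537 scaled counts in controls and at 5127, 5407 and 5466 after ampicillin, so that control node 2 reached the treated range. The change of 0.37 ± 0.13 (log2, SE) was not called (adjusted p = 0.171). Averaged over both tissues, 3 of the 6 measured homeostatic chemokines and receptors were called higher and 0 lower: Cxcl13, Cxcl12 by 0.29 (adjusted p = 0.0374) and Cxcr4, the receptor of CXCL12, by 0.51 (adjusted p = 0.046). Of all tested genes 2.92% were called higher in this average. The median of the 6 was 0.23, against -0.10 for all tested genes. This list too was chosen with earlier results of these data known, so the gap is not independent support. With TMM scaling 4 were called higher, as were 53 of the 445 genes, and limma called 1. Without ampicillin spleen 1 the calls were 2 higher and 1 lower. Over the fits without 1 sample the number called higher ran from 1 to 3, and it was 1 without ampicillin spleen 2, ampicillin node 1 or 2, control spleen 1 or control node 1.

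**Figure D4:**
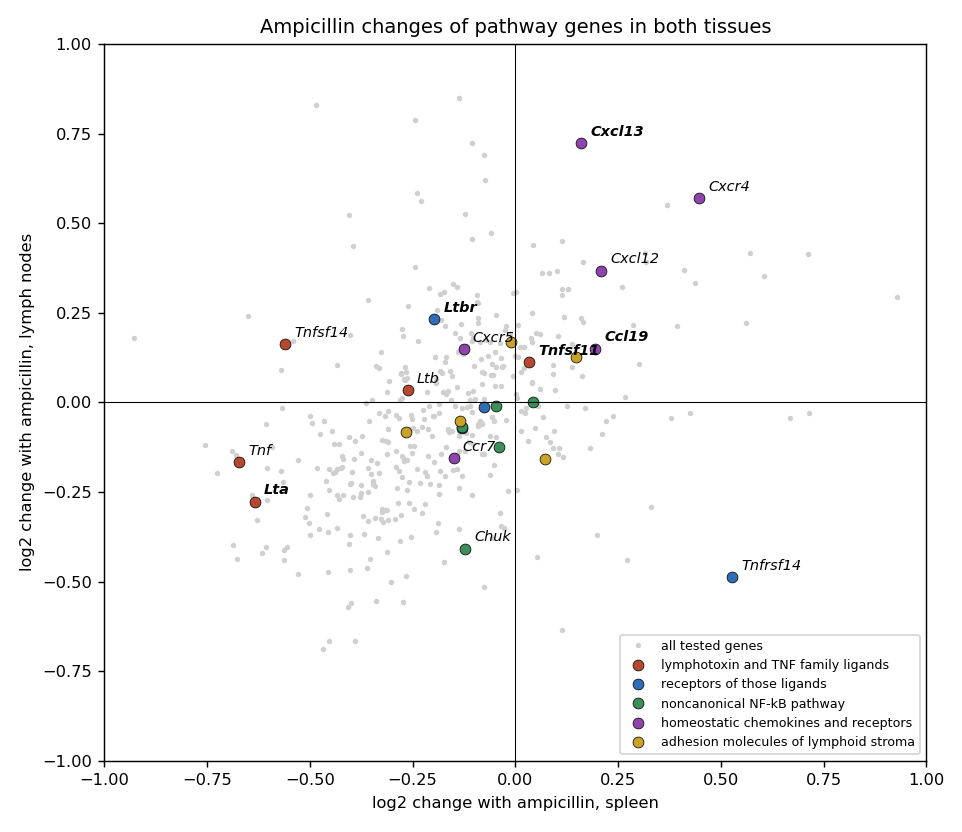
Log2 change with ampicillin in spleen (horizontal axis) and in lymph nodes (vertical axis) for genes of 5 pathway lists (coloured by list, a gene shown once) and all tested genes (grey); 10 genes lie outside the axes. Lta, Tnf and Tnfsf14 lie at the left, between -0.67 and -0.56 in spleen, and Cxcl13 lies at the top, at 0.72 in nodes.

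Markers of the cells that make or meet these signals were read beside the rise of Cxcl13 in nodes. The sum of 4 genes of follicular dendritic cells (Cr2, Fcgr2b, Vcam1 and Icam1), the stromal cells of B cell follicles, was 2029 to 2134 scaled counts in control nodes and 2006 to 2268 after ampicillin. None of the 4 was called, and Cr2, the complement receptor of these cells and of B cells, stood at 0.06 ± 0.13 (log2 change, SE). Icam1 and Fcgr2b are also made by many immune cells. The sum of 5 stromal and endothelial genes was 3656 to 3981 in controls and 3484 to 4360 after ampicillin, and Pecam1, an endothelial gene with group means of 2591 and 2708, made up most of it. In nodes 4 of these 5 genes lay above 0, at a median log2 change of 0.19 against -0.05 for all tested genes, and none was called. Cd34, a gene of endothelial, stromal and blood progenitor cells, held 258, 367 and 301 scaled counts in control nodes and 335, 473 and 421 after ampicillin, a change of 0.42 ± 0.17 (SE) that was not called (adjusted p = 0.189, edgeR) but passed in DESeq2 with its own size factors (0.48, adjusted p = 0.0299). In spleen Cd34 rose by 0.57 (adjusted p = 0.0396, edgeR). That call ended without any 1 of the 6 spleens (0.44 to 0.67) and without control node 3 (0.57, adjusted p = 0.0547). With ampicillin spleen 1 as the only treated spleen the change was 0.80. Of the 5 genes 3 lay above 0 in spleen and 2 below. Pecam1 held 2042 to 2109 scaled counts in control spleens and 1769 to 1934 after ampicillin, lower but not called. The sum of the 5 overlapped in spleen, at 2742.5 to 3116 and 2699 to 3009. Averaged over both tissues, Cd34 rose by 0.49 (adjusted p = 0.0133), where 2.92% of tested genes were called higher. In nodes the sum of 7 B cell markers was 13522 to 15647 in controls and 14161 to 15569 after ampicillin. The sums of these 3 lists overlapped between the node groups. The sum of 11 T cell markers, 17047 to 18488 in control nodes, was 14678 to 16156 after ampicillin and did not overlap, with none of the 11 called. The part of these markers in the rise of Cxcl13 was not tested.

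Adhesion molecules of lymphoid stroma and vessels, which lymphotoxin is known to induce, gave no called ampicillin change in either tissue (0 of 5 measured). Vcam1 stood at 0.15 in spleen and 0.13 in nodes, and Icam1 at -0.01 and 0.17 (log2 changes). In control mice Vcam1 was lower in nodes by 1.64 (log2 change -1.64 ± 0.11, SE; adjusted p = 3.54e-08) and Icam1 was higher by 0.40 (adjusted p = 0.00518). Of 8 measured genes of lymphoid tissue inducer cells 6 were tested, and 0 were called for ampicillin in either tissue. Il17a and Il22, products of such cells, lay below the minimum of 20 mean scaled counts and were not tested.

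The order of samples within a group was partly shared. In control nodes Cxcl13, Ltbr, Tnfsf11 and Ccl19 were highest in sample 2 and lowest in sample 3, and in ampicillin spleens all 4 were highest in sample 1. Lta was also highest in those samples of both groups. In control spleens Cxcl13 and Tnfsf11 were highest in sample 3 but Ltbr and Ccl19 in sample 2, and in ampicillin nodes Tnfsf11 was highest in sample 1 and the other 3 in sample 3. After the mean of each tissue was subtracted, the 6 pairwise Pearson correlations among those 4 genes over the 12 samples ran from 0.52 to 0.66, and those of Lta with each of them from -0.39 to 0.28. These correlations describe samples that share a scaling factor and a treatment. On the same measure the genes most like Cxcl13 were Il1r1, Ly96 and C1s (r = 0.88, 0.87 and 0.86), and those most like Ccl19 were Serping1, C1s and Ifitm1 (0.94, 0.90 and 0.90). The closest to Lta were Map4k1, Irf1 and Il4ra (0.93, 0.93 and 0.92), to Ltbr Fcer1g, C2 and Tgfbi (0.87, 0.86 and 0.84), and to Tnfsf11 C2, Clu and Ccrl1 (0.67, 0.65 and 0.64).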

How the data were processed

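The authors deposited a table of whole-number counts for 561 genes. The design text names normalization to 14 housekeeping genes, but the housekeeping geometric mean in the deposited counts ran from 912.4 to 1501, a 1.65-fold range, so they were treated as unnormalized. A scaling close to 1 cannot be told from the values. A further table with 12 columns whose names match no sample label was not used. The 14 housekeeping genes were named from knowledge of this panel.

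Housekeeping genes aside, 547 genes remained. A minimum mean of 20 scaled counts left 445 of them, all 5 members included. They were tested with the quasi-likelihood test of edgeR 4.0.16 (R 4.3.3) on 4 group means over 12 samples, which leaves 8 residual degrees of freedom, and p-values were adjusted by Benjamini-Hochberg across these 445. SE and p rest on a spread shared over the 4 groups. Alternatives used limma 3.58.1 and DESeq2 1.42.0. The fit was checked on simulated data with known changes. The members and 14 gene lists were chosen with earlier results of these data known. Text names the members, their partners, at most 4 called genes of a pathway list or 3 of a cell type list per comparison, and the 3 most like genes of each member by Pearson correlation of log2(scaled count + 1). Some genes outside this rule, such as Cd163, were chosen after their values were seen. A gene of the lymphoid tissue inducer list is not reported here.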

Additional observations from a re-analysis of the deposited data

Results flagged for a closer look

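Ltbr was called for ampicillin in neither tissue, but its treated samples lay on opposite sides of the control mean in spleen and in nodes. In nodes the treated and control samples overlapped. All 3 ampicillin spleens lay below the mean of the control spleens and all 3 ampicillin nodes lay above the mean of the control nodes. The effect in nodes minus that in spleen was 0.43 on the log2 scale (95% interval 0.01 to 0.85) and did not pass over all genes (adjusted p = 0.435, edgeR). With samples scaled to the median of tested genes the spleen change was 0.0042, so the directions were not opposite there.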

How the results depend on the processing

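Of 760 values of the 5 genes under alternatives, 710 kept both direction and side of the threshold. Another 24 changed sign without being called before or after. Among these, the Ltbr difference of tissues after ampicillin was -0.025 with TMM scaling, -0.033 with the median of tested genes, -0.0091 with the total count, -0.0054 with DESeq2's own factors and -0.041 without ampicillin spleens 2 and 3. The Tnfsf11 difference of effects was -0.030, -0.030, -0.095 and -0.040 with TMM, median and total scaling and without those spleens, and Ltbr in spleen was 0.0042 with median scaling.

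With the methods' t-test and Benjamini-Hochberg adjustment 0 members passed in spleen, 0 in nodes and 2 between control tissues. Lta in spleen stood at -0.65, Cxcl13 in nodes at 0.73, Ltbr and Ccl19 between control tissues at -0.40 and 0.73, and Lta between ampicillin tissues at 0.45. At the study's own thresholds, unadjusted, Lta passed in spleen and Cxcl13 in nodes, among 52 and 35 genes. With the compared groups alone 0 members passed in spleen, and Lta stood at -0.64. Without ampicillin spleens 2 and 3 together, which leaves ampicillin spleen 1 alone in its group, Lta stood at -0.50 in spleen. Between ampicillin tissues Lta then stood at 0.30 and Ccl19 at 0.48. With the total count Ltbr between control tissues stood at -0.26. DESeq2 with its own factors called 3 members in spleen, adding Cxcl13 at 0.31 and Ccl19 at 0.35.

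With 1 sample left out at a time, members called ran from 0 to 1 in spleen, in nodes and for the difference of effects. Lta in spleen ran from -0.70 to -0.52, Cxcl13 in nodes from 0.59 to 0.83 and Ltbr between control tissues from -0.53 to -0.26. Values that crossed 0 were Tnfsf11 in spleen (-0.076 to 0.17) and nodes (-0.0096 to 0.24), Ccl19 in nodes (-0.012 to 0.29), the differences of effects of Tnfsf11 (-0.057 to 0.21) and Ccl19 (-0.21 to 0.092), the mean effect of Ltbr (-0.046 to 0.087) and its tissue difference after ampicillin (-0.0044 to 0.11). The cause was not tested.

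Sample titles share numbers 1 to 3, but same-numbered samples of different groups correlated at -0.38 to 0.24 in their deviations, and the labels name different mice. With the number as a replicate block 0 members were called in nodes, where Cxcl13 stood at 0.72 (adjusted p = 0.0578). Genes called became 41 in place of 75 in spleen and 0 in place of 2 in nodes. TMM scaling called 22 genes in spleen, 11 higher and 11 lower, and 32 in nodes. With 1 sample left out the counts ran from 0 to 159 in spleen and from 0 to 32 in nodes. The t-test and the fit of compared groups alone were not run for the difference or the mean of effects.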
